A study of Rattus norvegicus with 8 samples.

Results

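Gpc2 and Gja1 are 2 genes whose RNA was read in purified rat retinal ganglion cells (RGCs) before birth, at a far higher level for Gpc2. Both had nearly disappeared by the second postnatal week. They were picked by name for this fall between embryonic day 21 (E21) and postnatal day 11 (P11), and they make up 2 of the 32623 gene IDs counted and 2 of the 1998 IDs that could be paired with a symbol. Because the contrast between the stages chose them, their levels and the ratios between stages are a description and carry no test. Embryos and pups were Sprague Dawley rats with no other genotype or treatment named, and both stages went through the same purification. Retinas were dissociated with papain, macrophages were removed on an antibody-coated plate, and the RGCs, which are the neurons that send axons through the optic nerve, were caught on a plate by their surface protein Thy1. More papain was used at P11 than at E21. Ribosomal RNA was depleted, and 1 library was made from each of 4 independent litters per stage, giving 8 libraries, so that n = 4 at each stage throughout. Between 13899299 and 20116017 reads per library were counted on genes.

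Gpc2 encodes glypican 2, also called cerebroglycan, a member of the glypicans. These are proteoglycans held in the outer leaflet of the cell membrane by a glycosylphosphatidylinositol (GPI) anchor, and their heparan sulfate chains bind growth factors, morphogens and guidance cues. Glypican 2 is known as a glypican of developing neurons. Gja1 encodes the connexin Cx43, whose hexamers dock between neighbouring cells to form gap junction channels that pass ions and small metabolites. Connexins of this kind are known in retinal progenitors, astrocytes and Müller glia as well as in developing neurons. In RNA from a bulk sample, fewer cells that express a gene and less RNA of that gene per cell cannot be told apart.

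The sequence upstream of each gene is shown because the genes fell together, so that a reader can see what the start regions do and do not hold. The sequences come from RefSeq for the assembly GRCr8, which is not the assembly to which the reads were aligned. Positions are counted back from the base before the RefSeq start used for each window. For Gpc2, on the minus strand at chr12:22397823-22398072, the capitals mark matches to the CCAAT box (CCAAT, read on the opposite strand) and to the GC box (GGGCGG, read on the opposite strand). For Gja1, on the plus strand at chr20:36302314-36302489, the capitals mark matches to TGACG, the core of the cyclic AMP response element, also read on the opposite strand. The start used for Gja1 lies inside the annotated span of the gene. The bases of its window after -75 also lie inside that span and are not printed. The exception is a stretch of 27 bases at chr20:36302496-36302522 in which the capitals mark a match to the AP-1 site (TGANTCA).
Gpc2 upstream: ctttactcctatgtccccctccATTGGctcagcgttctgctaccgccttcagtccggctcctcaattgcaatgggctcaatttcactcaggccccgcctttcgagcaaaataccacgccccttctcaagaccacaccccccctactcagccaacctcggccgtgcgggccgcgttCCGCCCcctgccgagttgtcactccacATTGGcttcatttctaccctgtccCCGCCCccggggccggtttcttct
Gja1 upstream: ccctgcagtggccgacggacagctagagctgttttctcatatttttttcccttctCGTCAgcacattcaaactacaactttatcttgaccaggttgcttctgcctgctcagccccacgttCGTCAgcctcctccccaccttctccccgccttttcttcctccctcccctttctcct
Gja1 AP-1 match: tccttccagtTGAGTCAgtggcttgaa

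The 250 bases upstream of Gpc2 held 2 CCAAT boxes, the nearer ending at -44, and 2 GC boxes, the nearer ending at -19. In the windows of the same length before 33469 RefSeq starts, 34.0% held a CCAAT box on either strand and 9.42% held at least 2, while 30.5% held a GC box and 14.8% at least 2. The 250-base window of Gja1 held 2 TGACG elements, the first bases of which were at -195 and -130, and 1 AP-1 site at -58 to -52. The TGACG elements lie before the annotated span of the gene, and the AP-1 site lies inside it. A TGACG element was found in 18.2% of all windows, at least 2 in 3.98%, and an AP-1 site in 6.34%. None of the motifs found in the Gpc2 window was found in the Gja1 window, and none of those of the Gja1 window in that of Gpc2. The full palindromic response element (TGACGTCA, in 1.59% of windows), the MYC E-box (CACGTG, 5.59%), the NRF1 site (3.75%), the ETS core (CCGGAA, 12.6%) and the TATA box (TATAAA, 12.9%) matched neither window on either strand. The TGACG element is contained in the palindromic element, and the other motifs do not contain each other. GC content was 60.8% in the Gpc2 window, above that of 76.5% of the windows. It was 51.2% in the Gja1 window, part of which lies inside the gene, the same as the median window. A match shows that the letters are present and does not show binding.

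Gpc2 (ENSRNOG00000001367) was read 7724, 10545, 10136 and 7516 times in the 4 E21 libraries and 54, 82, 111 and 193 times in the 4 P11 libraries, given in the order of replicates 1 to 4 in both cases. In CPM (counts per 1000000 reads), scaled by the trimmed mean of M-values (TMM), these were 517, 534, 532 and 550 at E21 and 3.63, 4.85, 7.05 and 10.5 at P11. The E21 libraries lay close together and every one was far above every P11 library, the lowest at E21 being 49.1 times the highest at P11. The mean went from 533 ± 13.3 CPM (SD, n = 4) to 6.51 ± 3.03 CPM (SD, n = 4), a ratio of 81.9, and the fitted log2 fold change was 6.32 (SE 0.22). What was left at P11 was 1.22% of the E21 mean, and between 0.681% and 1.97% in single libraries. Of the genes tested that passed as higher at E21, 0 had a larger log2 fold change than Gpc2.

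Gja1 (ENSRNOG00000000805) was read 357, 509, 628 and 338 times at E21 and 8, 11, 25 and 14 times at P11. In CPM these were 23.9, 25.8, 33.0 and 24.7 at E21 and 0.538, 0.651, 1.59 and 0.764 at P11. The stages did not overlap, and the lowest E21 library was 15.1 times the highest P11 library. The mean went from 26.8 ± 4.15 CPM (SD, n = 4) to 0.885 ± 0.477 CPM (SD, n = 4), a ratio of 30.3, with a fitted log2 fold change of 4.92 (SE 0.21). At P11, 3.30% of the E21 mean was left, and between 2.003% and 5.91% in single libraries. Of the genes that passed as higher at E21, 5 had a larger log2 fold change than Gja1, and Gpc2 was among them. Every P11 library was above a floor of 3 counts, so Gja1 RNA was low but still read at P11.

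**Figure D1:**
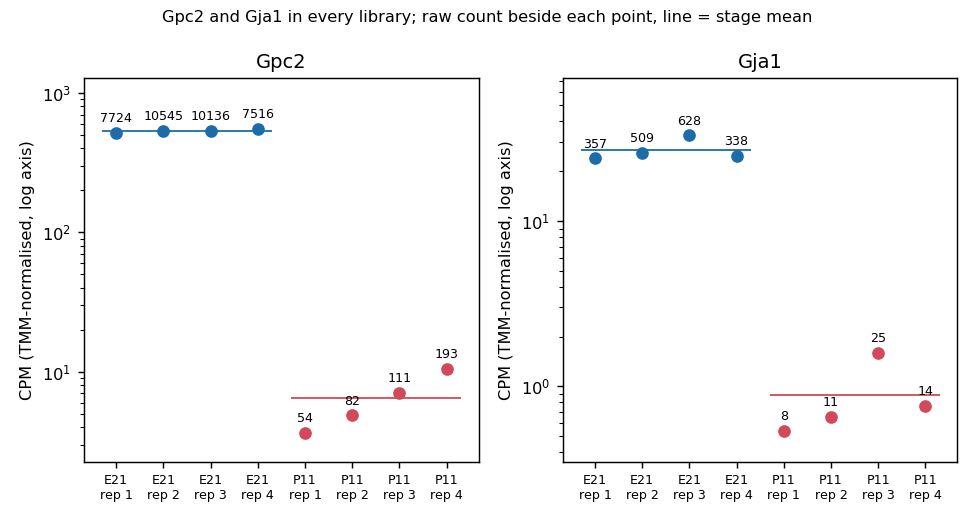
CPM of Gpc2 (left) and Gja1 (right) in each of the 8 libraries on a log axis, with the raw count beside each point and a line at the mean of each stage. All E21 points (blue) sit above all P11 points (red) for both genes, and the P11 points of Gpc2 spread from 3.63 to 10.5 CPM.

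Gpc2 was steady before birth and uneven after it. Its coefficient of variation (CV) was 2.502% over the E21 libraries, where counting alone would give 1.07%, and 46.5% over the P11 libraries, where counting alone would give 9.56%. Among the 3038 genes whose mean CPM at P11 was within 2-fold of that of Gpc2, the median CV was 12.1% and 98.8% had a lower CV than Gpc2. At E21 the median CV of the 595 genes within 2-fold was 3.60%, and 26.9% had a lower CV. As a share of all counted reads without TMM scaling, Gpc2 was at 3.65 CPM (95% exact binomial interval 2.74 to 4.77) in P11 replicate 1 and 10.9 CPM (9.39 to 12.5) in P11 replicate 4, and these intervals do not overlap. Such intervals cover counting error only. PCR copies of a molecule are counted as separate reads, so the intervals and the CVs given for counting alone may be too small.

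Gja1 was uneven at both stages. Its CV was 15.4% at E21, where counting alone would give 4.73%, and 97.0% of the 4270 genes within 2-fold of its mean had a lower CV. E21 replicate 3 was the highest, at 32.2 CPM without TMM scaling (95% exact binomial interval 29.7 to 34.8) against 23.4 (21.1 to 26.0) in E21 replicate 1. At P11 the CV was 53.9%, with 26.3% from counting alone, and 96.0% of the 1400 genes within 2-fold had a lower CV. P11 replicate 3 was the highest, at 1.61 CPM without TMM scaling (1.04 to 2.37), and P11 replicate 1 the lowest, at 0.541 (0.234 to 1.07). With 8 to 25 counts in a library, the intervals are wide. That of P11 replicate 3 overlaps those of replicate 4 (0.431 to 1.32), replicate 2 (0.331 to 1.19) and, narrowly, replicate 1.

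The fall in these counts was deeper for Gpc2 than for Gja1. Gja1 counts per Gpc2 count were between 0.0450 and 0.0620 in the E21 libraries and between 0.0725 and 0.225 in the P11 libraries, without overlap between stages. The ratio depends on the lengths of both genes and is read here only across stages. The highest P11 library was replicate 4 for Gpc2 and replicate 3 for Gja1. In that P11 replicate 4, genes that passed as higher at E21 also stood slightly higher than in the other P11 libraries. Of the 1144 such genes other than Gpc2 and Gja1, 566 (49.5%) had their highest P11 value in replicate 4, where 29.4% of all 14043 genes tested did. On log2(CPM + 0.5), the median deviation of those 1144 genes from their own P11 mean was -0.06, -0.04, 0.03 and 0.08 in P11 replicates 1 to 4. The deviations of Gpc2 were -0.67, -0.29, 0.20 and 0.75, and those of Gja1 -0.36, -0.21, 0.65 and -0.08. The offset of 0.5 shrinks the deviations of Gja1, whose P11 levels were 0.538 to 1.59 CPM. Without the offset, the SD of log2 CPM over the P11 libraries was 0.682 for Gja1 and 0.666 for Gpc2. Without P11 replicate 4 the log2 fold change of Gpc2 was 6.67, and without P11 replicate 3 that of Gja1 was 5.33.

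The named genes with the profile most like that of Gpc2 over the 8 libraries were Cd24, Gja1 and Cxcr4. Likeness was the root mean square difference between log2 CPM profiles, each centred on its own mean. It was 0.89 for Cd24, 1.07 for Gja1 and 1.10 for Cxcr4, where the median over the 1778 other named genes tested was 3.19. Among all 14042 other genes tested, unnamed IDs included, Cd24 ranked 1, Gja1 5 and Cxcr4 6. Cd24, a small GPI-anchored sialoglycoprotein known from immature neurons, measured 1106, 1126, 1176 and 1199 CPM in the E21 libraries and 34.4, 39.2, 53.3 and 70.2 CPM in the P11 libraries. Its P11 libraries stood in the same order as those of Gpc2. That order was shared by Carhsp1, given below, and by the median deviation of the 1144 genes other than Gpc2 and Gja1 that passed as higher at E21.

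Around Gja1, the nearest named profiles were Cd24 at 0.33, Carhsp1 at 0.46 and Cxcr4 at 0.55, with a median over the other named genes of 2.19. Their ranks were 5, 12 and 21 among all genes tested, so that unnamed IDs had profiles more like that of Gja1. On this scale the P11 levels of Gja1 lie near the offset of 0.5 CPM. Its gap between stages was 4.35 there, against a fitted log2 fold change of 4.92. The likeness of Gja1 to other genes, Gpc2 included, without the offset was not tested. Carhsp1, an RNA-binding cold shock domain protein, measured 139, 145, 151 and 146 CPM at E21, then 8.27, 9.82, 11.2 and 15.5 CPM at P11. Cxcr4, the receptor of the chemokine Cxcl12, measured 36.2, 32.4, 34.4 and 43.8 CPM at E21, then 1.08, 1.54, 0.889 and 2.84 CPM at P11. Carhsp1 and Cxcr4 were highest at P11 in replicate 4, as Gpc2 was, while the highest Gja1 count was in replicate 3. All these profiles come from the same 8 libraries, and the gap between the stages, for which Gpc2 and Gja1 were chosen, enters the measure, so it is given without a test.

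**Figure D2:**
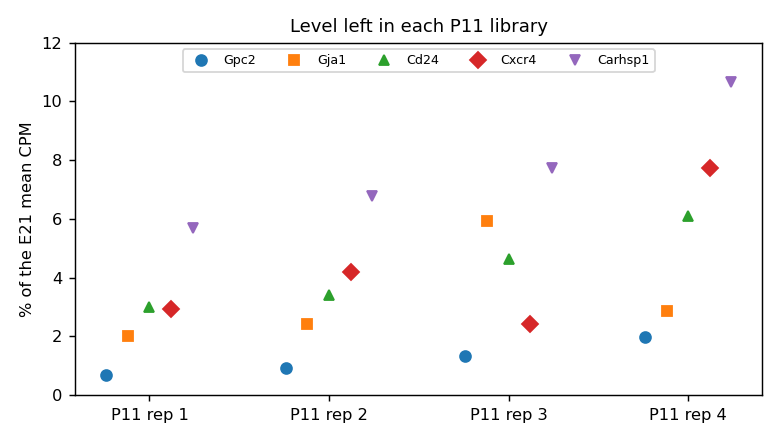
Level left in each P11 library as a percent of the E21 mean CPM, for Gpc2, Gja1 and the genes with the most similar profiles. Gpc2 was the lowest of the 5 in every library, from 0.681% to 1.97%. Gja1 had its own highest value in replicate 3, at 5.91%, where Carhsp1 was at 7.74%.

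Among all 14043 genes tested with edgeR's quasi-likelihood test, 8.16% passed as higher at E21 and 16.5% as higher at P11, with thresholds of 0.01 on the adjusted p and of 1 on the size of the log2 fold change. Among the 1779 of these genes that were named, from which the lists are drawn, 7.76% and 16.1% passed. The median log2 fold change of all genes was 0.0042. Against this background, the genes listed as proteoglycan core proteins stood mostly on the other side from Gpc2. Of 36 core proteins listed apart from Gpc2, 9 were named and 8 tested, and of these 1 passed as higher at E21 and 6 as higher at P11, with a median of -1.83. The list holds proteins of the matrix, also of that around photoreceptors, besides proteoglycans of the membrane, and whether each carries a chain in these cells was not tested. The summed level of named vascular and mural cell markers, which was 6.44 to 8.64 CPM at E21 and 424 to 819 CPM at P11 (7 of 7 tested higher at P11), and that of photoreceptor markers, at 6.99 to 8.50 CPM and 29.9 to 49.4 CPM (4 of 6 tested higher at P11, Impg2 among them), was also higher at P11, and the part of either in these results was not tested.

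Gpc4, the only other glypican that could be named, rose where Gpc2 fell. It was read 14, 16, 17 and 20 times at E21 and 62, 73, 42 and 94 times at P11, without overlap. Its level went from 1.03 ± 0.296 to 4.07 ± 1.03 CPM (SD, n = 4), a log2 fold change of -2.02 (SE 0.25, edgeR adjusted p = 1.15e-06). Gpc2 counts per Gpc4 count were between 376 and 659 at E21 and between 0.871 and 2.64 at P11. The remaining glypicans had no symbol paired and were not analysed here.

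Tgfbr3, the membrane proteoglycan betaglycan that presents TGF-beta, rose from 3.58 ± 0.666 to 10.1 ± 0.579 CPM (log2 fold change -1.49, edgeR adjusted p = 3.13e-08). Col18a1, the heparan sulfate-bearing collagen of basement membranes, rose from 24.7 ± 5.15 to 77.4 ± 13.6 CPM (log2 fold change -1.65, edgeR adjusted p = 1.33e-04). The other genes that rose were Fmod and Prelp, small leucine-rich proteins of fibrous matrix, and Impg2, a proteoglycan of the matrix around photoreceptors. Fmod was read 2 to 12 times at E21 and 52 to 87 times at P11, Prelp 0 to 1 times and 22 to 50 times, and Impg2 18 to 29 times and 106 to 201 times. Optc, an extracellular matrix protein of the vitreous, fell from 1.59 ± 0.371 to 0.707 ± 0.134 CPM (log2 fold change 1.15, edgeR adjusted p = 1.04e-03), a call that was lost when the test was made against a log2 fold change of 1. Prg4 did not pass, at 10 to 17 counts against 8 to 24.

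Of 58 enzymes listed that build, sulfate or cleave the chains, 15 were named and tested. Of these 0 passed as higher at E21 and 3 as higher at P11, with a median log2 fold change of -0.10. That is 20% in either direction, near the 23.8% of all named genes tested. Xylt2, a xylosyltransferase that starts a chain on the core protein, was at 34.1 ± 2.38 CPM in E21 and 44.5 ± 2.35 CPM in P11 RGCs. Fam20b, the kinase that phosphorylates that xylose, was at 132 ± 18.5 and 134 ± 1.90 CPM. Ugdh, which makes the glucuronic acid donor, was at 30.7 ± 2.54 and 18.4 ± 1.12 CPM, a log2 fold change of 0.73 (SE 0.07) that stayed below the threshold of 1. Among the heparan sulfate sulfotransferases Hs3st5 was at 88.1 ± 3.18 and 94.3 ± 3.20 CPM and Hs3st3b1 at 30.8 ± 1.09 and 22.3 ± 1.11 CPM. Ids, the lysosomal iduronate sulfatase, was at 245 ± 9.10 and 151 ± 8.60 CPM. The enzymes that rose were Hpse, the heparanase that cleaves heparan sulfate (log2 fold change -1.55, edgeR adjusted p = 3.31e-08), and the chondroitin sulfotransferases Chst3 (-3.23, edgeR adjusted p = 2.88e-07) and Chst7 (-2.28, edgeR adjusted p = 4.45e-05). Chst3 was read 2 to 10 times at E21 and 26 to 67 times at P11, and Chst7 1 to 6 times and 14 to 27 times.

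Ligands that bind heparan sulfate, with the receptors and effectors of their pathways, were tested for 17 of 79 genes listed. Of these, 1 passed as higher at E21 and 6 as higher at P11, and the median log2 fold change was -0.89. That is 5.88% and 35.3% of the genes tested, beside 7.76% and 16.1% of all named genes. The gene that fell with Gpc2 was Ndp, the norrin ligand of a Frizzled receptor, from 3.04 ± 0.488 to 0.866 ± 0.338 CPM (log2 fold change 1.79, edgeR adjusted p = 6.04e-06). Wnt9b, a Wnt ligand, rose from 2.31 ± 0.566 to 9.44 ± 0.915 CPM, and Pdgfa, a platelet-derived growth factor chain, from 21.2 ± 0.898 to 85.6 ± 7.54 CPM. Unc5b, a netrin receptor, rose from 6.79 ± 1.26 to 19.5 ± 2.55 CPM. Flt1, a VEGF receptor of endothelium, was read 0 to 5 times at E21 and 39 to 97 times at P11. The edgeR adjusted p of these genes was 7.08e-14 for Pdgfa, 6.10e-09 for Wnt9b, 2.02e-08 for Unc5b and 6.39e-08 for Flt1. Tgfb2 passed narrowly at a log2 fold change of -1.03, and did not pass without E21 replicate 2, at -0.88, or without E21 replicate 3, at -0.94. Slit2, a guidance ligand that binds glypicans, was at 77.0 ± 4.81 and 143 ± 5.35 CPM, a log2 fold change of -0.89 that did not reach the threshold. Rtn4rl1 and Dvl3 had log2 fold changes of 0.29 and 0.49 and did not pass.

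Other proteins held in the membrane by a GPI anchor, as glypican 2 is, went both ways. Of 41 listed, 11 were tested, with 2 that passed as higher at E21 and 3 as higher at P11, and a median log2 fold change of 0.11. These are 18.2% and 27.3% of the genes tested, beside 7.76% and 16.1% of all named genes. With 11 genes tested, the counts are too small to be set apart from those shares. The median log2 fold change turned to -0.65 with no filter and to -0.67 with DESeq2, where more genes with few counts were tested. Cd24 and Ly6g6c, a Ly6 family protein, were the ones that fell. Cd24 went from 1152 ± 42.8 to 49.3 ± 16.1 CPM (log2 fold change 4.54, SE 0.23, edgeR adjusted p = 1.37e-06). Ly6g6c was read 82 to 107 times at E21 and 4 to 12 times at P11 (log2 fold change 3.43, SE 0.26, edgeR adjusted p = 2.59e-09). Cntn1, the axonal adhesion protein contactin, rose from 237 ± 14.5 to 747 ± 19.9 CPM (log2 fold change -1.66, edgeR adjusted p = 1.22e-14). Lypd1, a modulator of nicotinic receptors, rose from 8.79 ± 1.44 to 22.9 ± 1.96 CPM (log2 fold change -1.39, edgeR adjusted p = 2.22e-09), and Art3 from 2 to 6 counts to 30 to 72 counts (log2 fold change -3.51, edgeR adjusted p = 6.93e-08). Mdga2 had a log2 fold change of -0.69 and did not pass. Of the enzymes that assemble the anchor, 3 of 28 were named, and Piga, Pigl and Pigv had log2 fold changes of 0.31, 0.07 and -0.22, none of which passed.

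Of 41 connexins, pannexins and connexin partners listed apart from Gja1, 8 were named and 6 tested, with 0 higher at E21, 2 higher at P11 and a median log2 fold change of -0.79. With 6 genes tested, these counts are too small to be set apart from the 7.76% and 16.1% of all named genes. Gjb1, the only other connexin that could be named, was read 1, 5, 9 and 6 times at E21 and 11, 5, 5 and 7 times at P11, which overlap and were too few to test. Cnst, consortin, which binds connexins and aids their delivery to the membrane, was at 32.8 ± 1.55 and 62.5 ± 4.72 CPM, a log2 fold change of -0.93 (SE 0.06) below the threshold. Erp29, a chaperone of Cx43 assembly, was at 35.8 ± 1.34 and 39.5 ± 1.77 CPM. The genes that rose both encode kinases known to phosphorylate Cx43. Prkca, which also marks bipolar cells, rose from 38.3 ± 2.68 to 87.5 ± 3.23 CPM (log2 fold change -1.19, edgeR adjusted p = 4.21e-12). Cdk1, a kinase of dividing cells, rose from 4 to 9 counts to 25 to 83 counts (log2 fold change -2.98, edgeR adjusted p = 5.38e-06).

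Of the genes of tight and adherens junctions, the other contacts between cells, 6 of 33 were tested. Calls among 6 genes are too few to be set apart from the 7.76% and 16.1% of all named genes. Arvcf, a catenin that binds cadherins, passed as higher at E21, from 240.3 ± 4.12 to 98.3 ± 8.40 CPM (log2 fold change 1.29, edgeR adjusted p = 8.58e-13), 0 passed as higher at P11, and the median was 0.27, or -0.08 with no filter and -0.09 with DESeq2. Nectin3 and Cxadr, both adhesion proteins of the immunoglobulin superfamily, had log2 fold changes of 0.86 and 0.66. Cldnd1 had -0.12, Shroom3 -0.91 and Cldn15 -0.96. None of these passed.

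**Figure D3:**
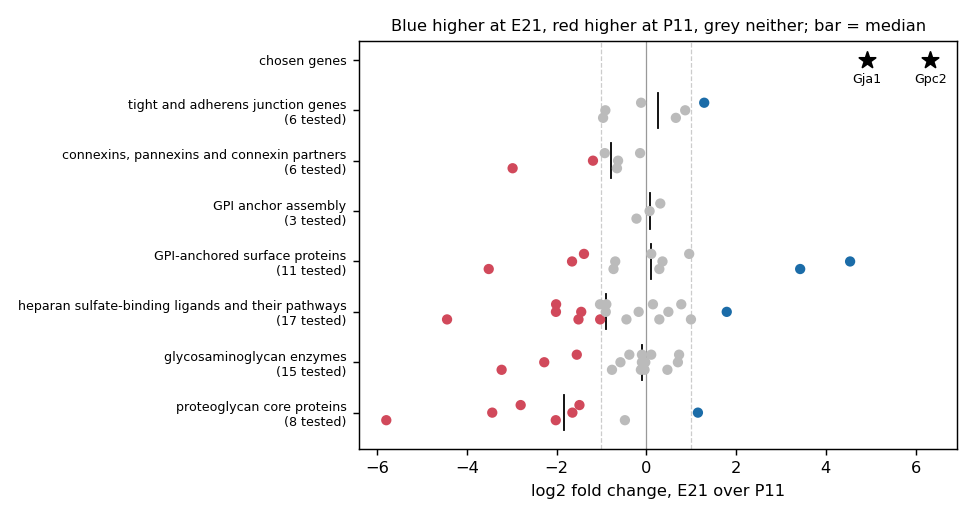
Log2 fold change, E21 over P11, of every tested gene in 7 lists, 1 point per gene, with a bar at the median of each list and dashed lines at -1 and 1. Gpc2 (6.32) and Gja1 (4.92), drawn as stars, lie to the right of all list genes, of which Cd24 at 4.54 comes nearest.

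The nearest named genes on the chromosomes of Gpc2 and Gja1 had log2 fold changes between -1.35 and 1.02. For each gene the 5 nearest named genes on either side were taken from the RefSeq gene order on GRCr8, where Gpc2 is on chromosome 12 and Gja1 on chromosome 20. Genes without a paired symbol were skipped, so that many of these are not adjacent. Counted in protein-coding genes away from Gpc2, Mblac1, Taf6, Ap4m1 and Mcm7 were numbers 10, 12, 13 and 14 on the side of Gal3st4, and Agfg2, Irs3, Lrch4 and Mospd3 were numbers 41, 42, 44 and 47 on the side of Stag3. The named genes around Gja1 were numbers 1, 2, 5, 8 and 9 on the side of Msl3l2 and 1, 3, 5, 12 and 13 on the side of Hsf2. Gal3st4 and Stag3 are the protein-coding genes directly next to Gpc2, and the annotated spans of the 3 genes do not overlap. Stag3, a cohesin subunit of meiosis that lies upstream of Gpc2 on the opposite strand, was read 16, 16, 21 and 14 times at E21 and 7, 10, 23 and 27 times at P11. These counts overlap, and the log2 fold change was -0.02 (SE 0.34, edgeR adjusted p = 0.959), a sign that turned when single libraries were left out. Gal3st4, a galactose sulfotransferase on the same strand as Gpc2, was at 1.84 ± 0.191 and 1.03 ± 0.418 CPM, and its log2 fold change of 0.81 (SE 0.27, edgeR adjusted p = 0.0113) did not pass, although it did, at 1.11, without P11 replicate 4.

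Over the 10 named genes nearest to Gpc2, 9 were tested, 1 passed as higher at E21, 0 passed as higher at P11, and the median log2 fold change was 0.15. With 9 genes tested, these counts are too small to be set apart from the 7.76% and 16.1% of all named genes. The gene that passed was Mcm7, a subunit of the replicative helicase, from 37.5 ± 1.83 to 18.3 ± 1.76 CPM (log2 fold change 1.02, edgeR adjusted p = 1.05e-09). It lay at the threshold and no longer passed when scaled by library size, at 0.97, or without P11 replicate 1, at 0.99, or P11 replicate 2, also at 0.99. Agfg2, at -0.96, was the lowest, and passed as higher at P11 when scaled by library size, at -1.01. Ap4m1 was at 0.56, Mospd3 at 0.41, Taf6 at 0.15, Mblac1 at -0.10 and Lrch4 at -0.19, and Irs3 was too low to test.

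Around Gja1, 9 of the 10 nearest named genes were tested, with 0 higher at E21, 1 higher at P11 and a median of -0.12. As around Gpc2, such counts are too small to be set apart from the shares of all named genes. Pkib, an inhibitor of protein kinase A, rose from 1.92 ± 0.741 to 4.99 ± 1.06 CPM (log2 fold change -1.35, edgeR adjusted p = 9.83e-05). Hsf2, a heat shock transcription factor next to Gja1 on the same strand, was at 58.8 ± 3.48 and 32.1 ± 1.84 CPM, a log2 fold change of 0.87 (SE 0.06) below the threshold. Msl3l2, next to Gja1 on the other side, was at 14.0 ± 1.54 and 15.3 ± 0.611 CPM. The log2 fold changes of Tbc1d32, Man1a1, Asf1a, Mcm9, Tspyl1 and Tspyl4 were -0.17, 0.11, -0.47, 0.02, 0.04 and -0.12, and Smpdl3a was too low to test.

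**Figure D4:**
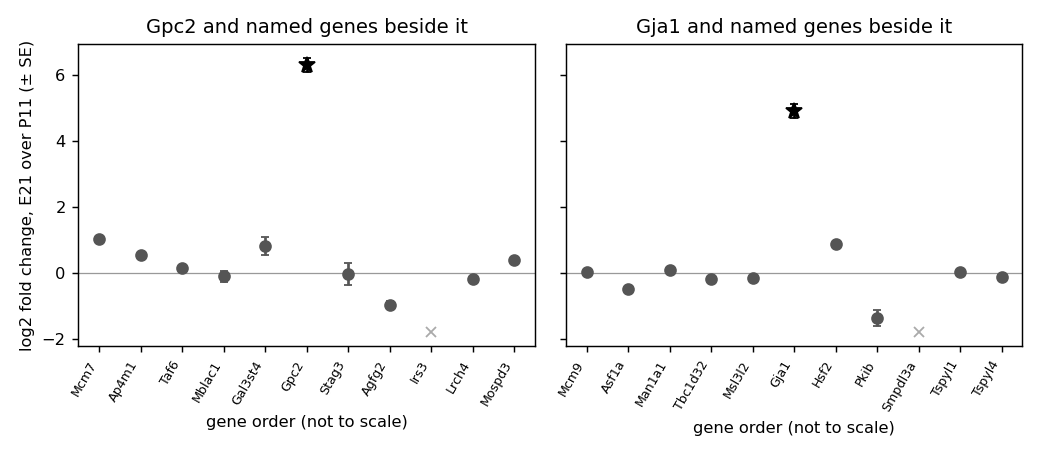
Log2 fold change, E21 over P11, with its SE for Gpc2 and Gja1 (stars) and the 5 nearest named genes on either side, in gene order, with unnamed genes skipped and distances not to scale. The named genes around them lie between -1.35 and 1.02, and crosses at the bottom mark genes too low to test.

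Markers of other cells were read beside these genes. Of 13 RGC markers listed, Rbfox3 and Gap43 were named, and their summed level was 1789 to 1883 CPM at E21 and 720 to 783 CPM at P11, which rests on Gap43. Gap43, a growth cone protein, fell from 1711 ± 44.0 to 623 ± 30.8 CPM (SD, n = 4), while the neuronal nuclear protein Rbfox3 was at 119 ± 6.78 and 126 ± 7.76 CPM and did not pass. The defining astrocyte marker Gfap was read at most 3 times in any library, and Sox9, of progenitors and glia, 7 to 14 times at E21 and 4 to 7 times at P11. The 4 of 12 astrocyte and Müller glia markers that were named summed to 11.2 to 15.8 CPM at E21 and 7.24 to 8.11 CPM at P11, most of it Pdgfra, which passed as higher at E21, while S100b went from 0 to 1 counts to 16 to 35 counts. The 13 of 19 progenitor and cycling cell markers named summed to 277 to 307 CPM and 174 to 205 CPM, most of it Msi1 at 228 ± 11.3 and 118 ± 5.06 CPM, with 0 higher at E21 and 4, among them Hes1 and Cdk1, higher at P11. For vascular and mural cell markers 10 of 16 were named. Their P11 sum was highest in replicate 4, the library with the most Gpc2, and lowest in replicate 3. The Gja1 count was highest in that replicate 3, but its interval overlaps those of all other P11 libraries. Photoreceptor markers (6 of 9 named) summed to 6.99 to 8.50 CPM at E21 and 29.9 to 49.4 CPM at P11, bipolar markers (4 of 7) to 41.4 to 49.0 and 87.3 to 94.5 CPM, and amacrine and horizontal cell markers (2 of 9) to 6.29 to 7.30 and 13.3 to 20.97 CPM. Members of the last 2 lists went both ways. Among bipolar markers Prkca rose, Grm6 fell from 5.97 to 3.37 CPM without passing, and 2 were too low to test. Gad1 rose from 0.856 to 13.8 CPM, while Prox1 fell from 5.97 to 2.63 CPM and passed as higher at E21. Microglia markers (5 of 8) stayed at or below 1.85 CPM in sum, and none was high enough to test. Reads that mapped to more than 1 place were dropped in the counting and were 37.4% to 42.2% of the total at E21 and 31.7% to 36.3% at P11. The part of these differences in the values of Gpc2, Gja1 and the lists was not tested.

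**Figure D5:**
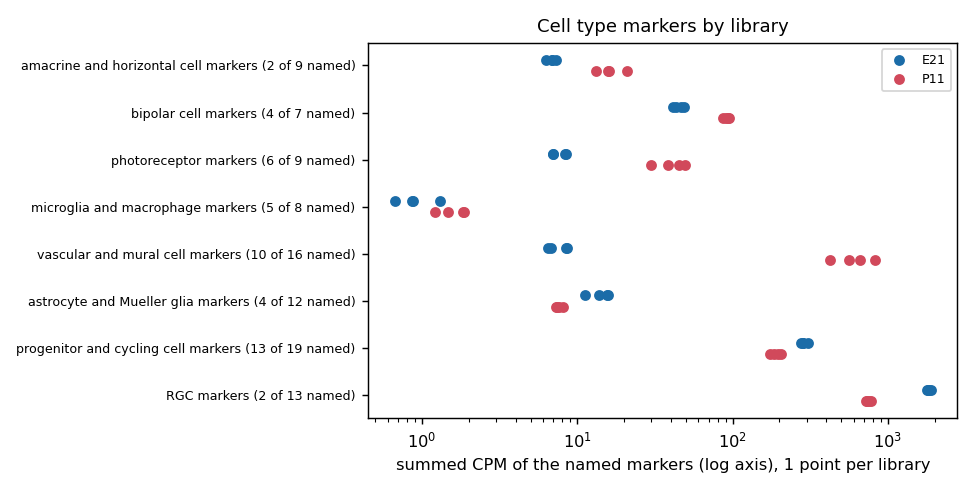
Summed CPM of the named markers in 8 lists of cell type markers in each library, on a log axis, with E21 in blue and P11 in red. Vascular and mural cell markers are the furthest apart, at 6.44 to 8.64 CPM against 424 to 819 CPM, and the lower P11 sums of the RGC, progenitor and astrocyte and Müller glia lists rest mostly on Gap43, Msi1 and Pdgfra, 1 gene in each. The higher P11 sums of the bipolar list and of the amacrine and horizontal cell list rest mostly on Prkca and on Gad1. Grm6 of the bipolar list and Prox1 of the amacrine and horizontal cell list were lower at P11.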

How the data were processed

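RNA from immunopanned RGCs of 4 litters at E21 and 4 at P11 was sequenced. Reads were trimmed (Cutadapt 1.16), quality-filtered, aligned to Rnor_6.0 (STAR 2.5.3a) and counted per gene (HTSeq 0.6.1) by the authors, who deposited the raw counts of each library. The annotation release and the strand setting are not given in the sources used here, so genes that overlap others may share reads. Symbols came from the part of the study's gene table at hand, which pairs 1998 IDs.

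From the counts, edgeR 4.0.16 in R 4.3.3 was used with filterByExpr (14043 genes kept), TMM scaling and the robust quasi-likelihood test with Benjamini-Hochberg adjustment over all genes tested, and was tested on simulated data. The study used DESeq2, which was run as an alternative (version 1.42.0), as were other scaling factors, other filters, glmTreat against a log2 fold change of 1, the replicate number as a block and each library left out. Profile likeness and the deviations of single libraries from their P11 mean used log2(CPM + 0.5). Genes named were the members of each list past both thresholds, up to 6 by size of change, with up to 4 others by mean CPM, the neighbours and the 3 most similar profiles. Tgfb2, Ugdh, Xylt2, Hs3st3b1, Cldn15, Shroom3 and the markers were added after their values were seen. The results of some list members are not reported here. Gpc2, Gja1 and the lists were chosen with earlier results of these data known. The libraries of a stage came from separate litters, and the replicate numbers do not pair them.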

Additional observations from a re-analysis of the deposited data

Results flagged for a closer look

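Apart from Cldn15, Shroom3, Grm6, Gad1 and Prox1, each gene named was screened in each stage for a library set apart from the other 3. It was flagged where the gap exceeded Dixon's 95% limit for 4 values, which chance exceeds in about 1 of 20 groups. Neither Gpc2 nor Gja1 was set apart at either stage. Of 154 groups screened, 5 were. Pdgfa stood at 96.8 CPM in P11 replicate 3, with the next library at 83.0 CPM. Rbfox3 stood at 129 CPM in E21 replicate 1, with the next at 116 CPM. Sox9 stood lowest at 0.218 CPM in P11 replicate 4, Cenpf highest at 8.29 CPM in P11 replicate 4, and Asf1a, a named gene near Gja1, highest at 30.4 CPM in P11 replicate 1.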

How the results depend on the processing

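The log2 fold change of Gpc2 was 6.27 to 6.35 under the other settings and 6.14 to 6.67 with each library left out. That of Gja1 was 4.87 to 4.92 under the other count settings, 4.77 to 5.33 with each library left out, and 4.35 as a difference of mean log2(CPM + 0.5). With at least 10 counts in every library Gja1 was removed, at 8 counts in P11 replicate 1. Same-numbered E21 and P11 libraries did not deviate together, with correlations of -0.02, 0.09, -0.03 and 0.08, and with the number as a replicate block Gpc2 was at 6.34 and Gja1 at 4.92. The block changed no call of a gene screened above and no count by over 1.5 times.

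Genes higher at E21 numbered 668 with glmTreat, and genes higher at P11 1523 with at least 10 counts in every library. With glmTreat, 0 core proteins and 0 neighbours of Gpc2 were higher at E21 and 0 neighbours of Gja1 higher at P11. With at least 10 counts in every library, 1 chain enzyme, 1 connexin partner and 1 junction gene were higher at P11, and 1 GPI-anchored protein and 0 neighbours of Gpc2 higher at E21. Under library size and upper-quartile scaling, 0 neighbours of Gpc2 were higher at E21, and 1 neighbour and 1 junction gene higher at P11, the latter also with no filter. With single libraries left out, between 1 and 2 heparan sulfate-binding genes and between 0 and 2 neighbours of Gpc2 were higher at E21, and between 0 and 1 neighbours and between 0 and 1 junction genes higher at P11. Signs turned for Stag3 (0.038 with the replicate block, -0.24 to 0.24 with a library left out), Mcm9 (-0.035 with library size, -0.029 with upper-quartile scaling, -0.018 with at least 10 counts, -0.016 to 0.053 with a library left out), Tspyl1 (-0.012 with library size, -0.0069 with upper-quartile scaling, -0.013 to 0.071 with a library left out), Fam20b (-0.081 to 0.064 with a library left out) and Mblac1 (-0.19 to 0.036 with a library left out). The cause was not tested. With 8 to 25 counts per P11 library, depth limits what can be said of Gja1 within P11.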
